A study of Mus musculus with 12 samples.

Results

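Collagen genes were followed in the pancreas of C57BL6/NHsd (Harlan) and C57BL6/J (Jackson) mice with and without chronic pancreatitis induced by cerulein. The collagens were the genes whose symbol begins with Col and goes on with a number, a and a number, as the array annotation gives them. Of the 18194 genes with a probe set of their own, 42 were collagens, read by 82 probe sets, and each was represented by the probe set with the highest mean over the 12 arrays. By textbook assignment 11 were fibrillar, 6 were basement membrane (type IV), 9 were FACIT (fibril-associated collagens with interrupted triple helices) and 16 fell in no such class and are called other collagens. A gene was tested where its probe set exceeded log2 4 on at least 3 arrays, which held for 8505 genes and for 16 of the 42 collagens (6 fibrillar, 3 basement membrane, 2 FACIT and 5 other).

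Each substrain gave a group injected with saline and a group treated with cerulein, with 3 arrays per group, each labelled as a biological replicate, and all mice were 8 weeks old. Cerulein is a peptide that acts on the cholecystokinin receptor, and repeated doses over-stimulate the acinar cells that make digestive enzymes. The 6 saline mice were labelled female, and the labels used here gave no sex for the 6 cerulein mice. No allele, transgene or further agent was labelled in any group. The groups are called NHsd saline, J saline, NHsd cerulein and J cerulein.

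The samples were whole pancreas, so fewer cells of a type and less RNA per cell cannot be told apart. Acinar markers were bright in every group: the log2 of the summed signal of 6 of them lay between 17.72 and 17.79 on the saline arrays and between 16.99 and 17.47 on the cerulein arrays. Replicate 1 of J cerulein stood apart in its collagens, which are described below with and without it. On it all 16 tested collagens were below the mean of J cerulein replicates 2 and 3, with a median difference of -1.90 (log2), while the median of all 8505 tested genes differed by -0.01.

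Collagens are triple helices of polypeptide chains. Fibrillar collagens pack side by side into the fibrils that give scar tissue its strength, type IV chains form the sheet-like network of basement membranes under epithelium and endothelium, and FACITs sit on the surface of fibrils. In pancreas, fibrillar collagens are made mainly by stellate cells and fibroblasts, which deposit them in the fibrosis of chronic pancreatitis.

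The start regions of 4 tested collagens are printed to show how unlike they are among genes described below: Col3a1 and Col1a2 rose by the most over both substrains, Col6a1 is a collagen of another class that rose, and Col7a1 was not called in either direction. Each run holds the 250 bases before the annotated start of the gene, 5′ to 3′ on the strand of the gene, from RefSeq (GRCm38.p6), and capitals mark matches on either strand to the CCAAT box (the letters CCAAT), to the TATA box (here TATAAA) or to the GC box (here GGGCGG), which do not overlap each other. The windows lie at chr1:45311288-45311537 (plus strand) for Col3a1, chr6:4505368-4505617 (plus strand) for Col1a2, chr10:76726045-76726294 (minus strand) for Col6a1 and chr9:108953336-108953585 (plus strand) for Col7a1, and 0 annotated genes overlapped any of these windows.
Col3a1: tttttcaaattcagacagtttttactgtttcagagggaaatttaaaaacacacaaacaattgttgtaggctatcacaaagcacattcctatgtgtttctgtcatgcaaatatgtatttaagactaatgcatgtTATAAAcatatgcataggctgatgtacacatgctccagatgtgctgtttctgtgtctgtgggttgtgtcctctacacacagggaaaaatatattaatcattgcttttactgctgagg
Col1a2: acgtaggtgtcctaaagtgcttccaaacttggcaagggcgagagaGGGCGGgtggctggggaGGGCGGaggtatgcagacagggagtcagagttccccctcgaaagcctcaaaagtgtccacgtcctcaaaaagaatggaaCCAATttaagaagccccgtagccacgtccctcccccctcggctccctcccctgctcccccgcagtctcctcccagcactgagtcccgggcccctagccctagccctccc
Col6a1: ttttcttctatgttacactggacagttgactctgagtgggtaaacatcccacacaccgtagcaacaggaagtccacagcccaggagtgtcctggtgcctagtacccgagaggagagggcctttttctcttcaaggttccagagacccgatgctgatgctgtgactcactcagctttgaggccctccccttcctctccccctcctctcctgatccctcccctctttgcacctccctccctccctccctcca
Col7a1: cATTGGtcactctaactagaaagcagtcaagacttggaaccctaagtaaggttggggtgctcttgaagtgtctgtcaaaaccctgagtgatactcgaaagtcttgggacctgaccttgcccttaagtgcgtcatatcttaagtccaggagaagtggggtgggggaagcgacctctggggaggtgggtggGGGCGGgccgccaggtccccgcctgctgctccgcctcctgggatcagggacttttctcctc

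The only match in the Col3a1 window was TATAAA, 117 to 112 bases before the start. Col1a2 held CCAAT 109 to 105 bases before the start and GGGCGG at 188 to 183 and at 205 to 200 bases. In Col7a1, CCAAT stood on the other strand at 249 to 245 bases and GGGCGG at 61 to 56 bases, and Col6a1 held none of these letters. The RefSeq table had 15 start regions for 13 of the 16 tested collagens; Col1a1, Col5a2 and Col14a1 were not matched. In the 250 bases before the start, CCAAT was found in 8 of the 15 regions (53.3%), GGGCGG in 10 (66.7%) and TATAAA in 1 (6.67%), against 33.8%, 32.7% and 12.4% of all 32851 start regions in the table, read over the same length. The GC content of the collagen windows ran from 35.2% (Col3a1) to 76.4% (Col5a1), around a median of 52.4% for all start regions. These matches describe letters, and no binding was measured.

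Most of the tested collagens were higher after cerulein. Of the 16, 14 exceeded log2 4 on at least 3 saline arrays, while Col16a1 and Col18a1 passed the filter only with their cerulein arrays, which favours a rise. Among the 14, averaged over both substrains, 12 rose and 0 fell (limma, adjusted p below 0.05), where 54.8% of all 7464 genes that passed on the saline arrays rose, and the median change was 2.32 (log2) for the collagens and 0.40 for those genes. In NHsd mice 13 of the 14 rose, where 44.4% of these genes did, and in J mice 10 rose, where 42.8% did. Without J cerulein replicate 1 the counts were 13 in each comparison, beside 56.5% for both substrains, 49.7% for NHsd and 44.0% for J. With Col16a1 and Col18a1 counted too, 14 of 16 rose over both substrains, 14 in NHsd and 10 in J. Beside these, 59.4%, 48.7% and 47.8% of all 8505 tested genes rose. Without that array the counts were 15, 14 and 15, beside 61.0%, 53.7% and 49.2%. On all arrays, 15 of the 16 had an unadjusted p below 0.05 (limma) over both substrains, as had 6132 of all 8505 tested genes. The levels on each array show this step for most genes.

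**Figure D1:**
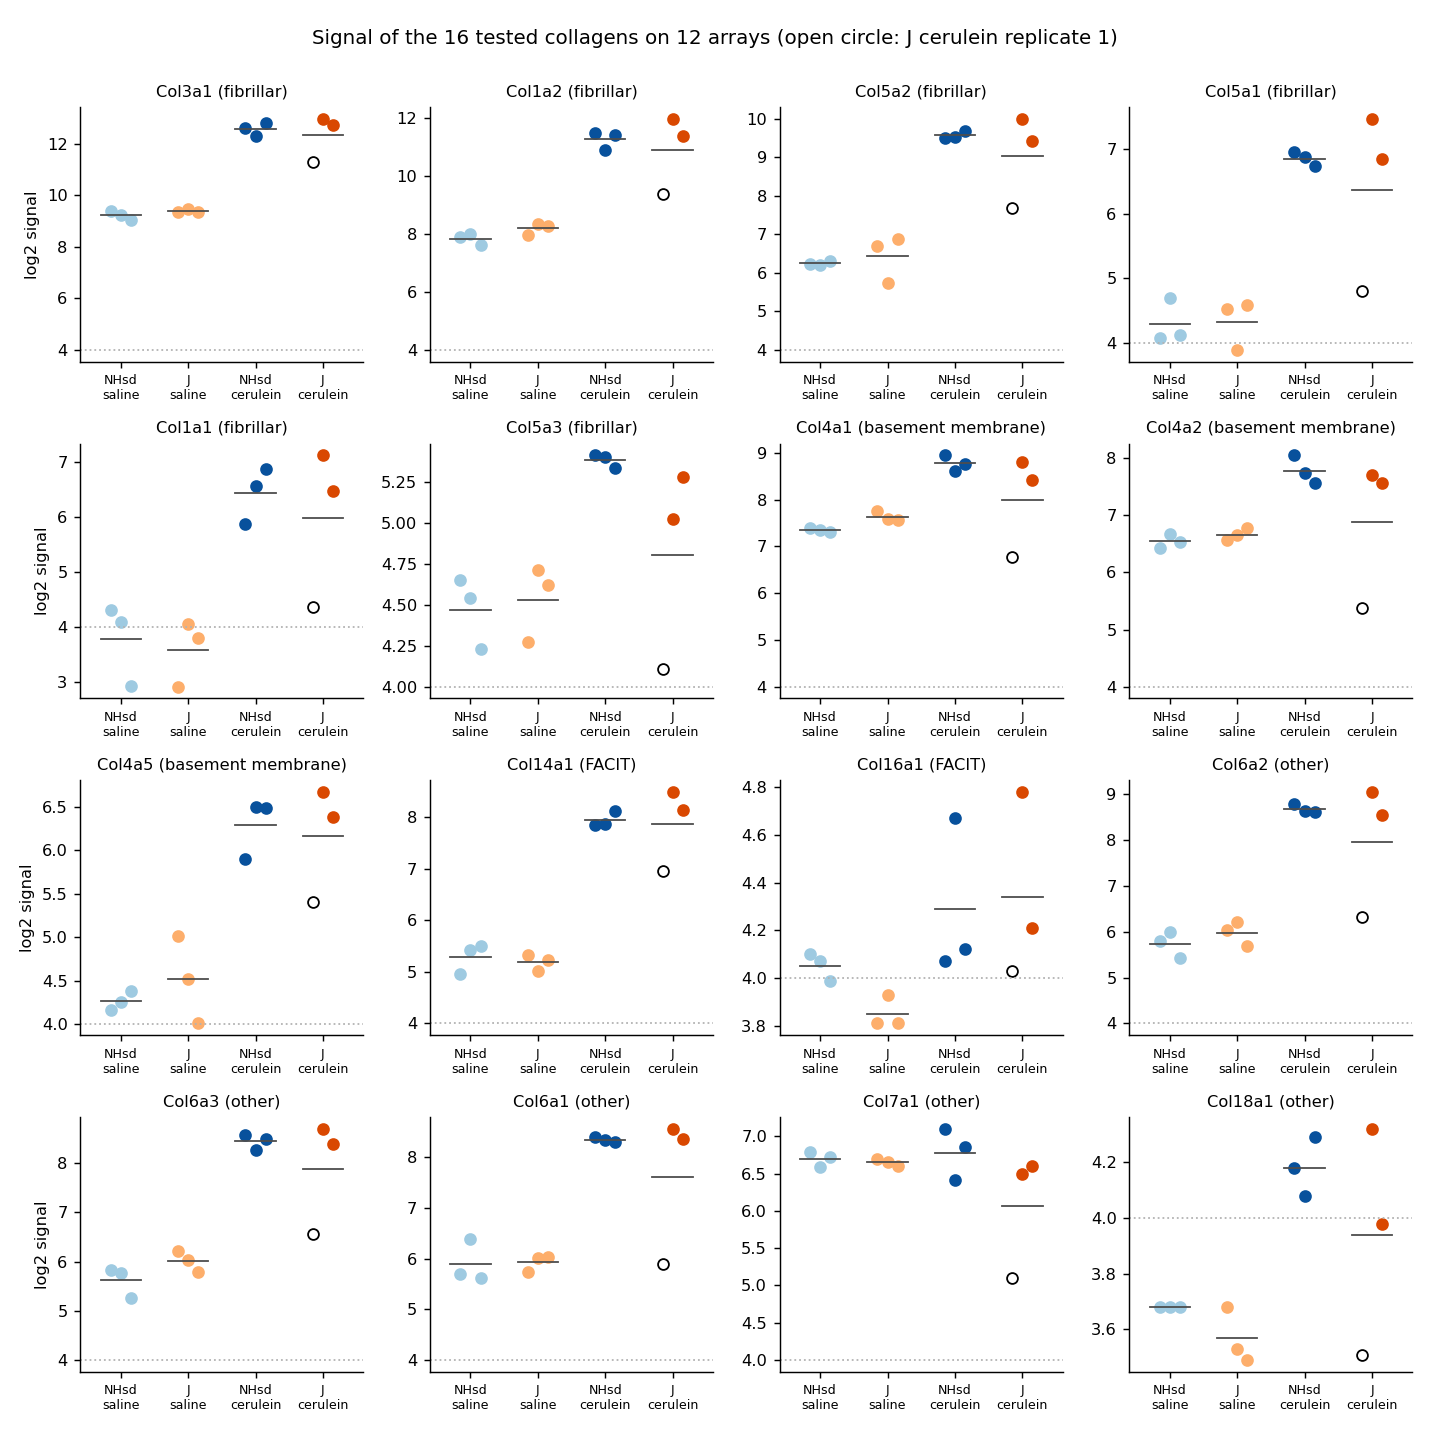
Signal of each of the 16 tested collagens (y axis, log2 signal as deposited, with its own range per panel) on the 12 arrays, by group (x axis). Each circle is 1 array, horizontal bars are group means, the dotted line is log2 4, and the open circle is J cerulein replicate 1. The other 5 cerulein arrays all lie above the 6 saline arrays in every panel but those of Col16a1 and Col7a1. How many of all 8505 tested genes separate in this way was not counted. Col18a1 passed the filter only with its cerulein arrays.

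Of the fibrillar collagens all 6 tested members were called higher on the mean of both substrains, beside 59.4% of all 8505 tested genes. In J alone 5 of the 6 were called, all but Col5a3, beside 47.8%. Col3a1, the chain of type III collagen and a marker of young scar, read 9.39, 9.25 and 9.05 on the NHsd saline arrays and 9.35, 9.45 and 9.35 on the J saline arrays. After cerulein it read 12.61, 12.28 and 12.81 in NHsd and 11.27, 12.97 and 12.74 in J. Every cerulein array lay above every saline array, and J cerulein replicate 1 was the lowest of the cerulein arrays. The mean change was 3.14 (SE 0.24), an 8.83-fold rise (limma, adjusted p = 2.8e-07), the largest among the collagens over both substrains. Col1a2 was ahead of it in NHsd (3.42 against 3.34) and, without J cerulein replicate 1, over both substrains (3.46 against 3.41), by less than the standard errors.

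Col1a2, a chain of type I collagen, the main fibril of scar, read 7.89, 8.01 and 7.63 in NHsd saline and 7.98, 8.35 and 8.28 in J saline. Its cerulein values were 11.48, 10.89 and 11.44 in NHsd and 9.38, 11.99 and 11.40 in J. The groups did not overlap, and the change was 3.07 (SE 0.34), or 8.42-fold (limma, adjusted p = 6.85e-06). Without J cerulein replicate 1 it was 3.46 (SE 0.15). Its partner chain, Col1a1, was read by a dim probe set, with saline values from 2.92 to 4.32, of which 3 exceeded log2 4, and cerulein values from 4.37 to 7.12. It rose by 2.53 (SE 0.43; limma, adjusted p = 0.000201), and its lowest cerulein value, again on J cerulein replicate 1, was just above its highest saline value.

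Col5a2 and Col5a1 encode chains of type V collagen, which is built into type I fibrils and starts their assembly. Col5a2 read 6.22, 6.20 and 6.32 in NHsd saline, 6.69, 5.75 and 6.89 in J saline, 9.51, 9.52 and 9.69 in NHsd cerulein and 7.68, 10.00 and 9.43 in J cerulein. It rose by 2.96 (SE 0.33), or 7.77-fold (limma, adjusted p = 6.52e-06), with no overlap between treated and saline arrays.
Col5a1 read 4.08, 4.70 and 4.13 in NHsd saline and 4.52, 3.89 and 4.59 in J saline, against 6.95, 6.87 and 6.73 in NHsd cerulein and 4.80, 7.47 and 6.84 in J cerulein. It rose by 2.29 (SE 0.36; limma, adjusted p = 0.000105), and J cerulein replicate 1 lay close to the saline arrays. Col5a3, a less widespread type V chain, changed least among the fibrillar collagens, by 0.59 (SE 0.18; limma, adjusted p = 0.011), near the median of all tested genes.
In J mice Col5a3 changed by 0.27 and was not called (limma, adjusted p = 0.381), and without replicate 1 by 0.62 (limma, adjusted p = 0.0116). The change of the other 5 fibrillar collagens lay between 2.29 and 3.14.

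Basement membrane collagens changed less in 2 of their 3 tested members. Col4a1 and Col4a2 encode the chains of the common type IV network, found under nearly all epithelium and in vessel walls. Col4a1 read 7.39, 7.36 and 7.31 in NHsd saline and 7.75, 7.59 and 7.56 in J saline, then 8.95, 8.62 and 8.76 in NHsd cerulein and 6.77, 8.80 and 8.42 in J cerulein. All cerulein arrays but J replicate 1 lay above the saline arrays, and that array lay below all of them. The change was 0.89 (SE 0.27; limma, adjusted p = 0.00951) over both substrains, 1.43 (SE 0.38; limma, adjusted p = 0.00673) in NHsd and 0.36 (SE 0.38; limma, adjusted p = 0.427) in J. Without J cerulein replicate 1 the J change was 0.98 (SE 0.14; limma, adjusted p = 0.000205).

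Col4a2 followed the same arrays. It read 6.43, 6.67 and 6.54 in NHsd saline, 6.56, 6.65 and 6.77 in J saline, 8.05, 7.74 and 7.56 in NHsd cerulein and 5.38, 7.70 and 7.56 in J cerulein. J cerulein replicate 1 was the lowest of all 12 arrays, and the other cerulein arrays were above every saline array. The change over both substrains was 0.73 (SE 0.32) and was not called (limma, adjusted p = 0.0584); without that array it was 1.10 (SE 0.10; limma, adjusted p = 3.51e-06). In NHsd Col4a2 rose by 1.24 (SE 0.45, limma, adjusted p = 0.0344). This call ended without any 1 of the 6 NHsd arrays (limma, adjusted p from 0.0523 to 0.108). It also ended with no filter (limma, adjusted p = 0.121) and with equal array medians (0.65, limma, adjusted p = 0.235). The SE came from a spread shared by all 4 groups, J cerulein included. Without J cerulein replicate 1 the NHsd change was the same 1.24 and was called (limma over all probe sets past the filter, adjusted p = 3.15e-05). In J Col4a2 changed by 0.22 (SE 0.45, limma, adjusted p = 0.697) with replicate 1 and by 0.97 (SE 0.15, limma, adjusted p = 0.000361) without it.

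Col4a1 and Col4a2 lie head to head on chromosome 8, with annotated starts 21 bases apart and no protein-coding gene between them. The 20 bases between the starts, chr8:11312806-11312825 (GRCm38.p6), are shown on the Col4a2 strand because the annotated transcripts of the pair overlap there; capitals mark GGGCGG, which lies past both starts and so outside the counts above.
Col4a1 and Col4a2: gtgcgcGGGCGGcgtctcca
Other neighbours among the collagens, with 0 protein-coding genes between them, were Col3a1 and Col5a2 on chromosome 1, Col6a1 and Col6a2 on chromosome 10, and Col4a5 and Col4a6 on chromosome X.

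Col4a5, a chain of the type IV network of kidney and other specialised basement membranes, changed more. It read 4.16, 4.26 and 4.38 in NHsd saline and 5.02, 4.52 and 4.01 in J saline, against 5.90, 6.50 and 6.49 in NHsd cerulein and 5.41, 6.67 and 6.38 in J cerulein. The groups did not overlap, and it rose by 1.83 (SE 0.23), or 3.56-fold (limma, adjusted p = 1.6e-05). Its neighbour Col4a6 stayed between 2.69 and 3.38 on all arrays and was not tested.

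The 2 tested FACITs differed from each other. Col14a1, which binds the surface of type I fibrils, read 4.95, 5.42 and 5.50 in NHsd saline, 5.33, 5.01 and 5.24 in J saline, 7.85, 7.86 and 8.12 in NHsd cerulein and 6.95, 8.49 and 8.14 in J cerulein. Cerulein and saline arrays did not overlap, and it rose by 2.66 (SE 0.22), or 6.31-fold (limma, adjusted p = 6.47e-07).
Col16a1, a FACIT found near small fibrils and cell surfaces, read 4.10, 4.07 and 3.99 in NHsd saline, 3.81, 3.93 and 3.81 in J saline, 4.07, 4.67 and 4.12 in NHsd cerulein and 4.03, 4.78 and 4.21 in J cerulein. The NHsd groups overlapped and the J groups did not. It changed by 0.36 (SE 0.15; limma, adjusted p = 0.0438), under the median of all tested genes, and this call ended in 8 of the 12 fits that each left out 1 array (limma, adjusted p from 0.0161 to 0.11). As all 3 J saline arrays were below log2 4, the J difference is also given against log2 4 in their place: at least 1.26-fold higher after cerulein, and at least 1.41-fold without replicate 1.

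Among the other collagens the 3 type VI chains rose and Col7a1 did not. Type VI collagen forms beaded filaments around cells, and a filament needs the products of Col6a1, Col6a2 and Col6a3. Col6a2 read 5.79, 5.99 and 5.42 in NHsd saline, 6.04, 6.22 and 5.69 in J saline, 8.78, 8.63 and 8.62 in NHsd cerulein and 6.33, 9.05 and 8.55 in J cerulein. It rose by 2.47 (SE 0.36; limma, adjusted p = 6.11e-05), with J cerulein replicate 1 just above the highest saline array.
Col6a3 read 5.83, 5.78 and 5.27 in NHsd saline, 6.21, 6.04 and 5.79 in J saline, 8.58, 8.27 and 8.50 in NHsd cerulein and 6.57, 8.70 and 8.38 in J cerulein. Its groups did not overlap, and it rose by 2.35 (SE 0.29; limma, adjusted p = 1.83e-05).
Col6a1 read 5.69, 6.39 and 5.61 in NHsd saline, 5.74, 6.02 and 6.03 in J saline, 8.39, 8.33 and 8.30 in NHsd cerulein and 5.90, 8.56 and 8.35 in J cerulein. J cerulein replicate 1 lay within the saline range and the other cerulein arrays far above it. The rise was 2.06 (SE 0.37; limma, adjusted p = 0.000313). In J alone it was 1.67 (limma, adjusted p = 0.0164), and the J call ended without J cerulein replicate 2, J cerulein replicate 3 or J saline replicate 1, at 1.19, 1.30 and 1.57 (limma, adjusted p = 0.0757, 0.0689 and 0.0501).

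Col7a1, the anchoring fibril collagen that ties epithelium to the matrix below, showed no call on the deposited scale. It read 6.79, 6.59 and 6.72 in NHsd saline, 6.70, 6.66 and 6.60 in J saline, 7.10, 6.41 and 6.85 in NHsd cerulein and 5.10, 6.49 and 6.60 in J cerulein. Treated and saline arrays overlapped, apart from the low J cerulein replicate 1. The change was -0.25 (SE 0.23; limma, adjusted p = 0.334), and without that array -0.01 (SE 0.12; limma, adjusted p = 0.932).
Col18a1, a basement membrane collagen whose fragment endostatin acts on vessels, was below log2 4 on all 6 saline arrays and exceeded it on 4 cerulein arrays, so it passed the filter through the treated groups alone and had to differ; its calls were lost in NHsd without any 1 of the 6 NHsd arrays (limma, adjusted p from 0.0503 to 0.112). Against log2 4 it was at least 1.14-fold higher after cerulein in NHsd and at least 1.11-fold in J without replicate 1.

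**Figure D2:**
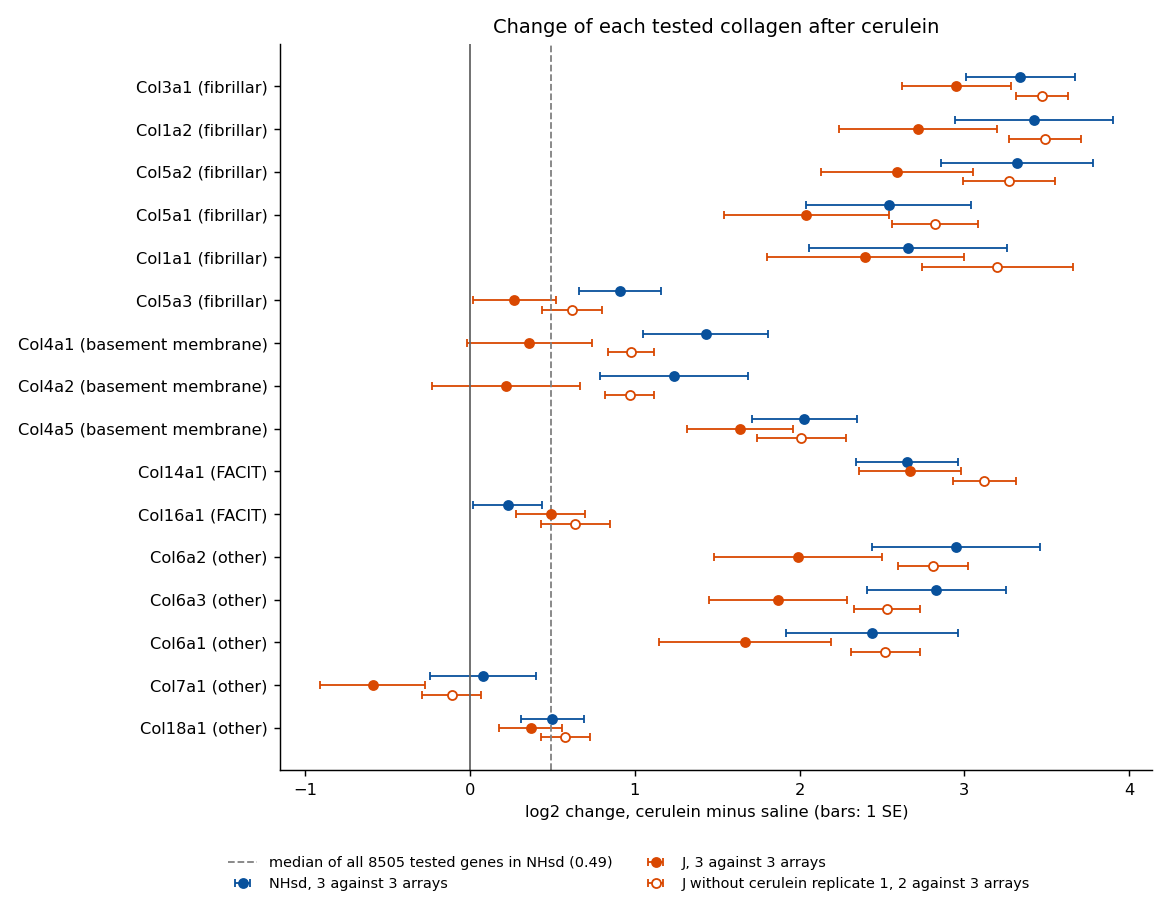
Change of each tested collagen after cerulein (x axis, log2 cerulein minus saline, bars 1 SE of the fit) for NHsd mice, J mice and J mice without cerulein replicate 1; the dashed line is the median change of all 8505 tested genes in NHsd (0.49). Open orange circles lie right of the filled ones for all 16 genes, from 0.37 to 0.58 for Col18a1 and from 1.67 to 2.52 for Col6a1.

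By class, the median change over both substrains was 2.74 for the 6 fibrillar, 0.89 for the 3 basement membrane, 1.51 for the 2 FACIT and 2.06 for the 5 other collagens. Without Col16a1 and Col18a1 the FACIT value was that of Col14a1 alone (2.66) and the median of the other class 2.20. Without J cerulein replicate 1 these medians were 3.11, 1.20, 1.66 and 2.48. In NHsd they were 2.99, 1.43, 1.44 and 2.44, and in J 2.49, 0.36, 1.58 and 1.67, the latter becoming 3.24, 0.98, 1.88 and 2.52 without replicate 1. The basement membrane median in J thus lay below the median of all tested genes (0.47) with that array and above it without.

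The difference between the fibrillar and the basement membrane class was seen on every treated array. On each array the class mean was taken after subtracting each gene's saline mean in the same substrain, and the basement membrane mean was subtracted from the fibrillar mean. This gave 1.08, 1.04 and 1.28 on the NHsd cerulein arrays and 1.27, 1.56 and 1.43 on the J cerulein arrays, replicate 1 first. Saline arrays gave 0.17, 0.11 and -0.28 in NHsd and -0.30, -0.03 and 0.33 in J. J cerulein replicate 1 was low in both classes: its fibrillar mean was 0.85 and its basement membrane mean -0.42 relative to J saline, where replicates 2 and 3 had 3.02 and 2.61 against 1.45 and 1.18. These are descriptions of classes of few genes, and no test was made of the difference between classes.

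**Figure D3:**
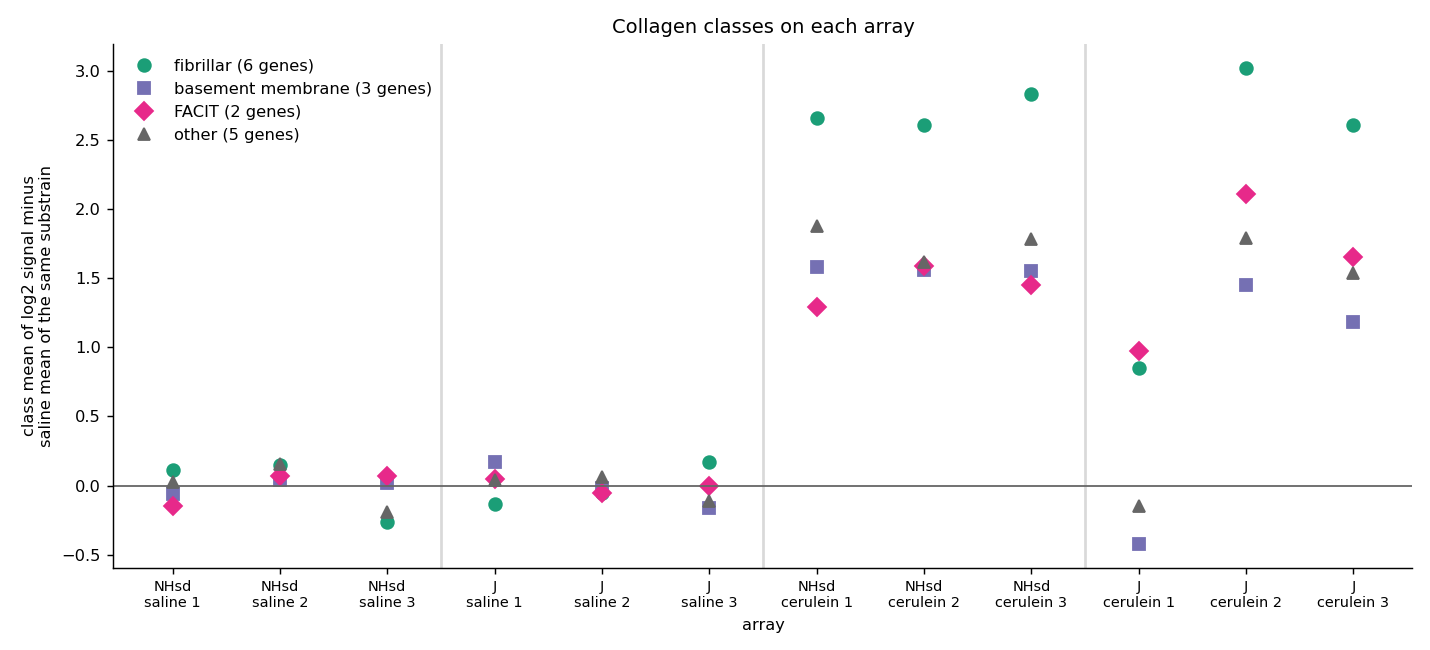
Mean of each collagen class on each array (x axis) as log2 signal minus the saline mean of the same gene and substrain (y axis). Fibrillar collagens (green circles) lie above basement membrane collagens (purple squares) by 1.04 to 1.56 on the 6 cerulein arrays, and J cerulein replicate 1 is the lowest cerulein array in all 4 classes.

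The substrains were compared directly. The difference of the cerulein effect, J minus NHsd, was called for 0 of the 16 collagens (limma; 0 at an unadjusted p below 0.05), where 0.0118% of all tested genes were called. Col4a1 had the widest gap, -1.06 (SE 0.53; limma, adjusted p = 0.714), followed by Col4a2 at -1.02 (SE 0.64; limma, adjusted p = 0.73). Without J cerulein replicate 1 these were -0.45 (SE 0.19, limma, adjusted p = 0.854) and -0.27 (SE 0.21, limma, adjusted p = 0.944). Again 0 collagens were called, beside 0% of all tested genes. At an unadjusted p below 0.05 (limma) there was 1, Col4a1, beside 485 of all 8505 tested genes. So a larger type IV rise in NHsd than in J is not shown by these arrays, nor is it shown that the substrains respond alike.

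In saline mice, J against NHsd called 0 of the 16 collagens (limma; 0 at an unadjusted p below 0.05) beside 0.0588% of all tested genes, and the differences ran from -0.20 (Col16a1) to 0.39 (Col6a3). After cerulein it called 0 (limma), beside 0.223%, with a median of -0.51 and a range from -0.90 (Col4a2) to 0.05 (Col16a1). At an unadjusted p below 0.05 (limma) there were 2 of the 16 after cerulein, beside 800 of all 8505 tested genes. Without J cerulein replicate 1 the median after cerulein was 0.13, with 0 collagens called (limma; 0 at an unadjusted p below 0.05) beside 0.0823% of all tested genes, and in saline mice 0 were called (limma; 0 at an unadjusted p below 0.05) beside 0.106%.

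On J cerulein replicate 1 the collagens lay lower than most genes. Its difference from the mean of replicates 2 and 3 ran from -2.55 for Col6a1 to -0.46 for Col16a1. Of the 16 collagens, 10 lay under the 1st percentile of all 8505 tested genes (-1.56) and 14 under the 5th (-1.02). Fibril-binding proteins had a median difference of -1.62 on this array, collagen-cleaving proteases -1.58, receptors -0.81, crosslinking genes -0.70 and processing genes -0.60. Among the markers, the median was -0.89 for mesothelium, -0.59 for cartilage (Sox9 alone), -0.56 for endothelium, -0.55 for Schwann cells (1 gene), -0.50 for stellate cells and fibroblasts, -0.33 for macrophages, -0.28 for acinar cells, -0.26 for duct and -0.13 for islets, and it was higher for adipocytes (0.42) and smooth muscle (0.38, 1 gene). Of the stellate cell markers, Pdgfrb (-1.68), Pdgfra (-1.27), Rgs5 (-1.06) and Dcn (-0.96) were the lowest on that array. Fap differed there by -0.50, Thy1 by -0.25, Lum by -0.20, Acta2 by -0.05 and Vim by 0.05.
Other genes, named after their values were seen, moved with the collagens there or against them: Malat1 differed by -2.58, Meg3 by -2.66, Alb by 2.21 and Fabp1 by 2.30. The part of these genes in the low collagen signal was not tested. The gap between the 3′ and 5′ control probe sets, a measure of RNA integrity, was 0.83 for Gapdh and 1.73 for beta-actin on that array. Both lay within the ranges of the other cerulein arrays (0.62 to 1.0 and 1.50 to 1.81). On the saline arrays the gap ran higher, from 0.91 to 1.44 and from 1.64 to 2.24, with overlap. The part of RNA integrity in the changes after cerulein was not tested. Outside J cerulein, the median deviation of the 16 collagens from the other arrays of the group lay between -0.18 and 0.14.

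**Figure D4:**
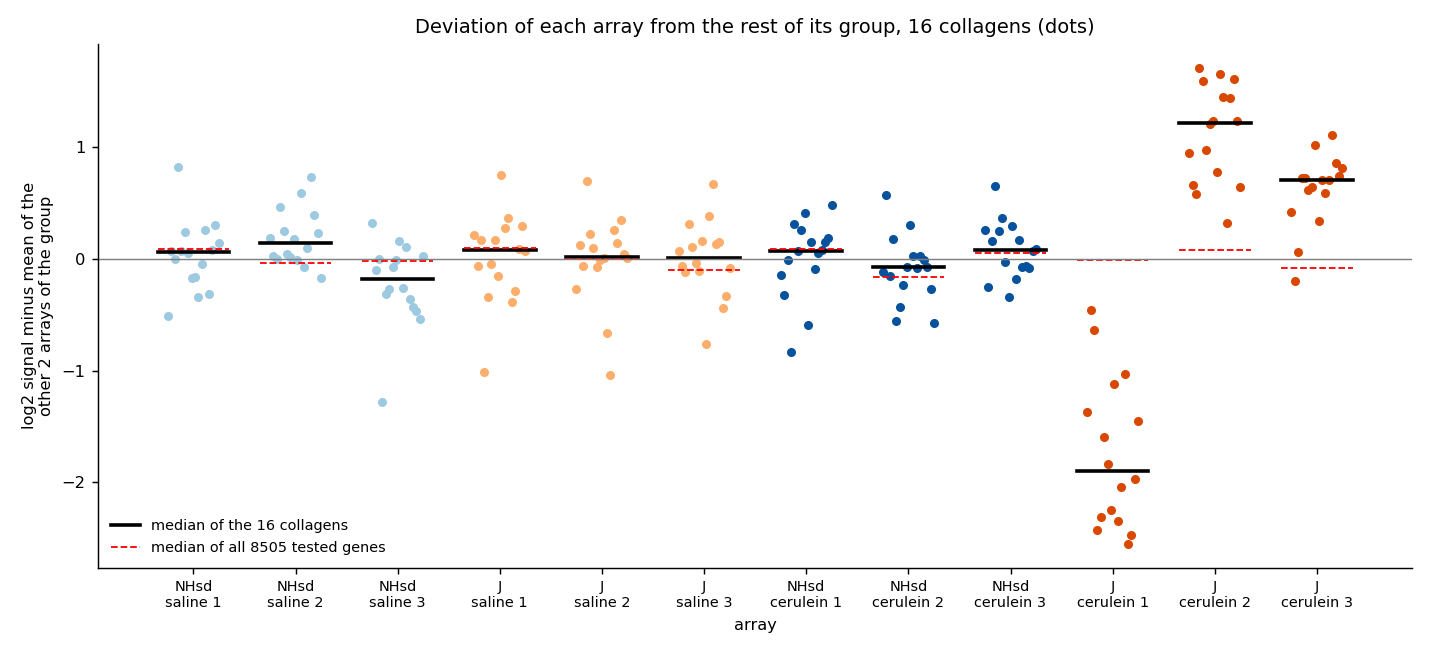
Each of the 12 arrays (x axis) against the mean of the other 2 arrays of its group (y axis, log2): dots are the 16 tested collagens, black bars their median and red dashed bars the median of all 8505 tested genes. On J cerulein replicate 1 the collagen median is -1.90 and the median of all genes -0.01; the collagen medians of replicates 2 and 3 lie above 0, with replicate 1 in their reference.

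The count of collagens depended on the scale. The deposited values were higher after cerulein for most genes (median 0.49 over all 8505 tested), and giving each array the same median over the tested genes takes that shift out. Then 10 of the 16 collagens rose over both substrains, where 26.6% of all tested genes rose, 10 in NHsd (20.2%) and 9 in J (20.9%). Col7a1 fell over both substrains, by 0.84 (limma, adjusted p = 0.00374), where 36.1% of all tested genes fell, and its change in J was -1.17 (limma, adjusted p = 0.00584), where 29.4% fell. The 9 collagens called on this scale in J were Col3a1, Col1a2, Col5a2, Col1a1, Col5a1, Col4a5, Col14a1, Col6a2 and Col6a3, and Col6a1 completed the 10 of the other comparisons.

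Col5a3 changed by 0.01, Col4a2 by 0.15 and Col4a1 by 0.31 on that scale, each without a call (limma, adjusted p = 0.97, 0.694 and 0.288), and Col16a1 and Col18a1 took the opposite sign. With equal medians and without J cerulein replicate 1, 12 rose over both substrains (29.2% of all tested genes), 12 in NHsd (23.8%) and 11 in J (22.9%), Col4a1 and Col4a2 among them over both substrains, by 0.62 and 0.52 (limma, adjusted p = 1.62e-05 and 0.00127). Col7a1 then fell in each comparison: by 0.60 over both substrains (39.8% of all tested genes fell), by 0.50 in NHsd (34.3%) and by 0.69 in J (33.3%).

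A further probe set that passed the filter was present for 8 of the 16 tested collagens. Of these 8, 7 were called higher there too, beside 59.4% of all tested genes, read by 1 probe set each. The further probe sets of Col1a1 and Col5a2 averaged 3.45 and 3.92 over the 12 arrays, under log2 4. Passing the filter thus favoured a rise for them. How many further probe sets pass on the saline arrays alone was not counted. The differences between the probe sets of a gene ran from 0.09 to 1.19, the latter for Col14a1, whose second probe set changed by 1.47. For Col4a1 the second probe set changed by 0.67 (limma, adjusted p = 0.0657) and without J cerulein replicate 1 by 1.02 (limma, adjusted p = 1.63e-06). Levels of different probe sets are not comparable, so the chains of a helix cannot be set against each other in amount.

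The 26 collagens that were not tested lay between 2.39, the lowest value of the table, and 4.10, and 15 of them stayed below log2 3 on all arrays. Low signal on these probe sets does not show that the gene is silent. Of the fibrillar class these were Col2a1, Col11a1, Col11a2, Col24a1 and Col27a1, and of the basement membrane class Col4a3, Col4a4 and Col4a6. Of the FACITs they were Col9a1, Col9a2, Col9a3, Col12a1, Col19a1, Col20a1 and Col22a1, with 3.44 (Col22a1) as the highest value. The other collagens not tested were Col6a4, Col6a5, Col8a1, Col8a2, Col10a1, Col13a1, Col15a1, Col17a1, Col23a1, Col25a1 and Col26a1. Just outside the filter were Col27a1, with 2 arrays above log2 4 and a highest value of 4.10, and Col8a1, with a highest value of 4.0, and just inside it was Col18a1, with 4 arrays above and a highest value of 4.32. The chains of cartilage fibrils (Col2a1, Col11a1, Col11a2) were under log2 4 on all arrays, as were 3 of the 4 cartilage markers, Acan, Matn1 and Comp. The other marker, Sox9, which is also expressed in pancreatic duct, was tested and rose in NHsd, by 0.60, but was not called over both substrains (0.33; limma, adjusted p = 0.0883).

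Genes that make, crosslink, bind or cleave collagen were counted from lists of the same kind, over both substrains, beside 59.4% of all tested genes that rose and 10.1% that fell on the deposited scale, and 26.6% and 36.1% with equal medians. Of 13 tested genes for collagen processing and secretion 7 rose, with a median of 0.35, and with equal medians 5 rose and 4 fell, near the shares of all tested genes. Pcolce, which speeds the trimming of fibrillar procollagen, had the largest rise among them, 2.43 (SE 0.17; limma, adjusted p = 1.6e-07). Serpinh1, the collagen chaperone HSP47, rose by 1.26 (SE 0.24; limma, adjusted p = 0.00054), while P4hb, a subunit of prolyl hydroxylase, changed by -0.08 without a call (limma, adjusted p = 0.573).

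Some genes of the other lists, like Col18a1, passed the filter only with their cerulein arrays, so counts are also given over the genes above log2 4 on at least 3 saline arrays, of which 54.8% rose on the deposited scale. All 3 tested crosslinking genes rose, but Lox, the lysyl oxidase that starts crosslinks, at 3.19 (SE 0.18; limma, adjusted p = 3.91e-08), and Loxl1 passed only with the cerulein arrays, which left 1 gene. Of 5 tested collagen receptors 5 rose, 2 of them with equal medians, and 3 of 3 rose among those that passed on the saline arrays. Ddr2, a receptor for fibrillar collagen, rose by the most, 1.92 (SE 0.19; limma, adjusted p = 2.29e-06). All 3 tested collagen-cleaving proteases rose on both scales, 2 of 2 among those that passed on the saline arrays, Mmp2, the gelatinase that is widely made by fibroblasts, by the most, 3.65 (SE 0.31; limma, adjusted p = 7.29e-07).

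Among 8 fibril-binding proteins 7 rose on both scales, and 6 of 7 among those that passed on the saline arrays. Postn (periostin), which did not, had the highest fitted change, 5.33 (SE 0.31; limma, adjusted p = 4.83e-08), while Fmod changed by 0.16 (limma, adjusted p = 0.637) and without J cerulein replicate 1 by 0.48 (limma, adjusted p = 0.0165).

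Markers of stellate cells, macrophages, duct and islets were higher after cerulein, as were most genes. Of all tested genes 59.4% rose and 10.1% fell on the deposited scale, and 26.6% rose and 36.1% fell with equal medians. Of the genes that passed on the saline arrays 54.8% rose on the deposited scale. Of 10 stellate cell and fibroblast markers 9 were tested and 9 rose, with a median of 1.90 (8 of 8 among those that passed on the saline arrays, and 8 of 9 with equal medians), and the log2 of their summed signal was 10.74 to 11.59 on saline arrays and 12.59 to 13.43 on cerulein arrays. J cerulein replicate 1 had the lowest of these treated values, 12.59, which was above every saline array. All 8 macrophage markers rose, with a median of 3.27 (5 of 5 among those that passed on the saline arrays, and 8 with equal medians), and a summed signal of 8.43 to 9.19 against 11.84 to 12.60. All 6 tested islet markers rose too, with a median of 0.61, but 2 with equal medians. Ppy passed the filter only with its cerulein arrays. Among the 5 islet markers that passed on the saline arrays, 5 rose, but 1 with equal medians. Of 6 tested duct markers 5 rose on both scales. Of 10 acinar markers 6 had a probe set of their own, and all 6 fell on both scales. Of the tested mesothelial markers 1 of 2 rose, and 0 with equal medians. The 1 that rose, Wt1, passed the filter only with its cerulein arrays, which favours a rise. The adipocyte (median 0.12 over 2 genes), Schwann cell (0.23, 1 gene) and smooth muscle (0.28, 1 gene) markers were not called.
Of 5 tested endothelial markers 2 rose and 0 fell, a smaller share than among all tested genes, and with equal medians 0 rose and 2 fell, Kdr by 0.79 and Plvap by 0.82 (limma, adjusted p = 0.000134 and 0.000476). Pecam1, Cdh5 and Tie1 were under log2 4 on all arrays, and the summed signal of that list was 8.11 to 8.41 on saline and 7.68 to 8.58 on cerulein arrays, lowest on J cerulein replicate 1. The part of these cells in the collagen changes was not tested.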

How the data were processed

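RNA from whole pancreas was purified with Trizol and RNeasy and made into biotin-labelled cRNA from 100 ng for Affymetrix arrays, per the labels' protocols. Signals were deposited on a log2 scale, 1 value per probe set and array; per the submitters' processing notes GCRMA and Partek were used, no version being given, and further steps are not given in the sources used here. The table held 45101 probe sets, 34958 with 1 gene symbol, on 12 arrays, 3 per group, which limits the precision. Values were used as deposited.

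Probe sets above log2 4 on at least 3 arrays were kept, with the highest mean of a gene standing for it (8505 of 18194 genes). With limma 3.58.1 in R 4.3.3, 1 model over the 12 arrays estimated the 4 group means (intensity trend, two-sided, 8 residual and 4.37 median prior degrees of freedom). Calls needed an adjusted p (Benjamini-Hochberg, all tested genes) below 0.05. "Both substrains" is the mean of the NHsd and J changes. The fit was also run on simulated data with independent noise for each gene, which does not cover a shift shared by many genes on 1 array. A change is a difference of log2 means with its standard error. The p-values set it against the spread between arrays within groups, pooled over the 4 groups and moderated across genes. The spread on J cerulein replicate 1 therefore enters the standard errors and p-values of the NHsd comparison too.

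The collagens, their classes and the gene lists were chosen with earlier results of these data known, so no test over the list was made. All tested collagens are named, with every array for at most 4 per class by mean signal. The symbols of 42 of 42 collagens matched RefSeq (GRCm38.p6), which gave the sequences. Protein sequences were not used here. Alternatives were other scalings, filters, variance moderation, the mean of probe sets, a wider basement membrane class, a replicate block and each array left out; counts over genes above log2 4 on at least 3 saline arrays were added after seeing the data.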

Additional observations from a re-analysis of the deposited data

How the results depend on the processing

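Class medians and counts depended on the scaling. With equal medians the changes of the fibrillar, basement membrane, FACIT and other classes were 2.16, 0.31, 0.93 and 1.47 over both substrains, 2.40, 0.84, 0.85 and 1.86 in NHsd and 1.92, -0.21, 1.0 and 1.09 in J. Quantile normalization gave 2.44, 0.94, 0.87 and 1.92 in NHsd, 0.95 for FACIT over both substrains, and -0.13 for basement membrane and 1.03 for FACIT in J. With either scaling 1 collagen, Col7a1, fell over both substrains and 1 in J. Equal medians without J cerulein replicate 1, chosen after seeing the data, gave the same NHsd medians, 1.08 for FACIT over both substrains, and 1 fall in each comparison.

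Under equal medians, quantile normalization and equal medians without that array, Col16a1 changed by -0.22, -0.22 and -0.15 over both substrains and -0.35 in each case in NHsd, and by -0.09 and -0.08 with the first pair in J. Col18a1 changed by -0.15, -0.21 and -0.04 over both substrains, -0.09, -0.12 and -0.09 in NHsd, and -0.21 and -0.30 with the first pair in J. Col7a1 in NHsd was -0.50 in each case. In J the first pair gave -0.21 and -0.13 for Col4a1, -0.36 and -0.31 for Col4a2 and -0.31 and -0.29 for Col5a3. By construction these scalings remove the rise shared by most genes.

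With no filter all 42 collagens entered, so medians include genes near the floor: 0.59 (fibrillar), -0.05 (FACIT) and 0.00 (other) over both substrains, 0.91, -0.02 and 0.06 in NHsd with 0.72 for basement membrane, and 0.50, 0.00 and 0.00 in J. In these fits 2 collagens, Col11a1 and Col6a5, were called lower over both substrains (-0.13 and -0.18) and in NHsd, and 1, Col19a1, in J (-0.32). Their highest values on any array were 2.75, 3.07 and 2.97, near the lowest value of 2.39, so these calls rest on values at the floor. The share of all unfiltered genes called lower was not counted. Counting only genes above log2 4 on at least 3 saline arrays, chosen after seeing the data, left FACIT at 2.66, 2.65 and 2.67 (both, NHsd, J; Col14a1 alone) and the other class at 2.63 in NHsd. A filter at log2 6 left FACIT at 2.66, 2.65 and 2.67 (both, NHsd, J) and in NHsd fibrillar at 3.32 and other at 2.63. The mean of probe sets gave 2.66, 1.31 and 1.20 in NHsd for fibrillar, basement membrane and FACIT, and the wider basement membrane class gave 1.24 there with 2.83 for the rest.

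Leaving out each array in turn, 13 to 15 collagens rose over both substrains, 12 to 14 in NHsd and 9 to 15 in J, and 0 to 1 fell in J. Class medians ran over both substrains from 2.48 to 3.11 (fibrillar), 0.69 to 1.20 (basement membrane), 1.38 to 1.66 (FACIT) and 1.82 to 2.48 (other); in NHsd from 2.85 to 3.13, 1.34 to 1.50, 1.37 to 1.52 and 2.30 to 2.69; in J from 1.97 to 3.24, -0.04 to 0.98, 1.31 to 1.88 and 1.19 to 2.52. Of the calls, 13 of 14 over both substrains, 12 of 14 in NHsd and 9 of 10 in J held in each of the 12 fits. In NHsd the calls of Col4a2 and Col18a1 ended without any 1 of the 6 NHsd arrays (limma, adjusted p up to 0.108 and 0.112). Col4a1 in J ran from -0.04 without J cerulein replicate 2 to 0.98 without replicate 1, and Col4a2 from -0.19 to 0.97 without the same arrays, with -0.12 without replicate 3. Col7a1 in NHsd ran from -0.07 without NHsd cerulein replicate 1 to 0.27 without replicate 2, and in J it fell, by 0.86, without J cerulein replicate 3. Deviations from the group means correlated above 0.1 in 6 of 18 pairs of same-numbered arrays, with a range from -0.162 to 0.341. Differently numbered arrays were not compared, so whether the numbers pair mice was not settled. The main model did not pair them. With the replicate block 14 rose over both substrains, 13 in NHsd and 11 in J; Col18a1 lost its NHsd call and Col16a1 gained one in J.

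Robust moderation and a filter at log2 6 called Col4a2 over both substrains (limma, adjusted p = 0.0492 and 0.0404), and the model with no intensity trend changed 0 of 50 single-collagen calls. With 3 arrays a group, values near log2 4 are the least certain.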
